A study of Mus musculus with 6 samples.

Results

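*Oc90* and 7 other genes of the otic epithelium, *Otol1*, *Otog*, *Otogl*, *Tecta*, *Tectb*, *Fbxo2* and *Lmx1a*, were examined in craniofacial tissue of E12.5 mouse embryos. They are 8 of the 38553 genes in the expression table and were found by name. The set was built around *Oc90* because its level was high in some samples and low in others, so the values of all 8 genes are given as a description and without a test. Controls were *Rbfox2* flox/flox embryos without Cre (n = 3), and *Rbfox2* mutants were Pax3Cre/+:Rbfox2 flox/flox embryos (n = 3). The floxed alleles are therefore common to both groups, whereas the Cre knock-in at *Pax3* is present only in mutants. Pax3-Cre acts in premigratory neural crest and in somites, and the dissected tissue also holds cells without Cre activity. The question asked of each sample was whether a high *Oc90* level came together with other genes of the inner ear.

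The inner ear forms from the otic placode, a thickening of head ectoderm beside the hindbrain that closes into the otic vesicle. Its epithelium secretes extracellular structures that lie on the sensory patches. Otoconia are the calcium carbonate crystals over the utricle and saccule, the tectorial membrane covers the hair cells of the cochlea, and cupulae sit on the cristae of the semicircular canals. *Oc90* encodes otoconin 90, the main protein of otoconia, and *Otol1* encodes otolin 1, a collagen-like protein of the same crystals. *Otog* and *Otogl* encode otogelin and otogelin-like, glycoproteins of the acellular membranes. *Tecta* and *Tectb* encode alpha- and beta-tectorin of the tectorial membrane. *Fbxo2* encodes an F-box protein that recognises glycoproteins and is abundant in the inner ear and in neurons. *Lmx1a*, a LIM-homeodomain transcription factor, acts in the otic vesicle and also in the roof plate and cortical hem of the brain.

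RNA-Seq gave 1 FPKM value, a fragment count divided by gene length and library depth, for each gene and sample. FPKM is a level per length, so genes can be compared with each other. The values of a sample summed to between 528123 and 590174. The number of fragments behind a value is unknown, but the smallest steps between low FPKM values put the libraries at about 36700000 to 49200000 fragments. These steps were regular in replicates 2 and 3 of both groups, where at least 85.4% of the low genes used lay within 0.15 of 1 or 2 fragments, and less regular in the first replicates (55.9% and 59.3%), whose estimates are less certain. The first replicates of both groups also stood apart in the first principal component, which held 47.1% of the variance (scores of 24.0 and 22.8, against -14.9 to -9.85 in the other 4 samples). *Rbfox2*, the targeted gene, was at 58.4, 65.0 and 61.3 FPKM in controls 1, 2 and 3 and at 38.1, 36.3 and 34.3 FPKM in mutants 1, 2 and 3, lower in every mutant. The markers of facial mesenchyme were present in every sample (10 of 10 genes, summed FPKM of 390 to 488), as the tissue label would have it. Y-linked genes were expressed only in mutants 1 and 2 (mean FPKM of 4 genes 14.4 and 13.9, against at most 0.0541 elsewhere).

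The 8 genes lie on 8 different chromosomes. On GRCm38, *Oc90* spans chr15:65876053-65912397 on the minus strand. Its neighbours there had another full order of samples but shared parts of it. *Efr3a*, at 10.9 to 13.2 FPKM, was highest in mutant 1, as *Oc90* was, and lowest in mutant 3. *Hhla1*, at only 0.0101 to 0.133 FPKM, was highest in mutant 2. Its lowest samples were controls 1 and 3, as for *Oc90*, with mutant 1 next at 0.0167 FPKM. *Otol1* spans chr3:70007613-70028708 (plus strand), *Otog* chr7:46240987-46311434 (plus), *Otogl* chr10:107760531-107912134 (minus) and *Tecta* chr9:42329619-42399929 (minus). *Tectb* spans chr19:55180733-55196313 (plus), *Fbxo2* chr4:148160621-148166424 (plus) and *Lmx1a* chr1:167689237-167848741 (plus). *Tecta* overlaps *Gm47629* on the opposite strand and *Tectb* holds *Mir6715*. The libraries were made with a stranded kit, but the setting used to assign fragments to genes was not stated, so values of overlapping genes are uncertain.

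RefSeq promoters (GRCm38.p6) were matched for 6 of the 8 genes (not *Oc90* and *Otogl*), with 7 start sites. The 250 bases before each start were searched on both strands for 3 motifs of factor families that act in the otic vesicle, which were the LIM-homeodomain core TAATTA, the SOX core ATTGTT and the GATA core AGATAA. The first was found in 4.84% of 32851 promoters, the next in 9.42% and the last in 9.99%. The POU octamer ATTTGCAT (1.6% of promoters) was added after the *Otol1* sequence had been read. None of the 4 motifs contains another. Matches were found in *Otol1* (octamer, 80 bases upstream) and in *Tectb* (GATA core on the opposite strand, 67 bases upstream), and none of these letters was found in the other 5 windows. The upstream sequences of *Otol1* (chr3:70007363-70007612, plus) and *Otog* (chr7:46240737-46240986, plus) are shown because both genes had their 2 lowest and 2 highest samples in common with *Oc90*. *Tectb* (chr19:55180476-55180725, plus) is shown for its match. Each is written 5′ to 3′ and ends next to the start site, with capitals marking the match.
Otol1: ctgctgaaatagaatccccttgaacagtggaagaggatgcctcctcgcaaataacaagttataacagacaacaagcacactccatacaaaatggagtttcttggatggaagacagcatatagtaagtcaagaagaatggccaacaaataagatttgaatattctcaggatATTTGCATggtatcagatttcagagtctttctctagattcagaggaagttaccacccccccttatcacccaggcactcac
Otog: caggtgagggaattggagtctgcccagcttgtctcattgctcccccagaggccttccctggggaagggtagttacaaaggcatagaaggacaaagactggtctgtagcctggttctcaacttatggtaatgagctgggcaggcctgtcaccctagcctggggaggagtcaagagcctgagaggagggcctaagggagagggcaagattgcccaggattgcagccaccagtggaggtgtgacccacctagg
Tectb: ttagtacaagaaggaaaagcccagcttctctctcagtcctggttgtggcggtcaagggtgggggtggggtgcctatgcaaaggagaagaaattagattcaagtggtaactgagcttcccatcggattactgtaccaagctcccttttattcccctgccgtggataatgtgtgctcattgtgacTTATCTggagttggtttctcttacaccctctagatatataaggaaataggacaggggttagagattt
GC content of these stretches was 41.2%, 57.2% and 46%, so they share neither base composition nor a motif among those searched. A match is a description of the letters and not evidence of a site.

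*Oc90* was at 0.0829, 5.04 and 0.0631 FPKM in controls 1, 2 and 3, and at 25.4, 10.2 and 8.38 FPKM in mutants 1, 2 and 3. Controls 1 and 3 were near 0, whereas control 2 reached a level closer to that of mutant 3 than to that of the other controls. The groups did not overlap, and the mean was 1.73 ± 2.87 in controls and 14.7 ± 9.34 in mutants (SD, n = 3). On the log2(FPKM + 1) scale mutants were higher by 2.88 (SE 0.95). Within replicate numbers the difference was 4.61, 0.89 and 3.14, smallest where control 2 was the partner. The values rest on an estimated 2383, 755 and 587 fragments in the mutants and 432 in control 2, against 6.48 and 4.93 in controls 1 and 3. For each of the other 7 genes the groups overlapped. Over all genes tested, 3.03% had all 3 mutants above all 3 controls, and nothing is read from the 1 of 8 genes, because *Oc90* was chosen on this contrast.

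*Otol1*, the second otoconial protein, was at 0.00959, 0.0793 and 0.0110 FPKM in controls 1, 2 and 3 and at 0.464, 0.280 and 0.0727 FPKM in mutants 1, 2 and 3. The lowest samples were again controls 1 and 3 and the highest again mutant 1, followed by mutant 2, but control 2 and mutant 3 lay side by side, so the groups overlapped. The difference was 0.29 (SE 0.13) on the log2(FPKM + 1) scale, which understates change at such low levels. *Otol1* was represented by an estimated 49.3 and 23.4 fragments in mutants 1 and 2, by 7.69 in control 2, by 5.76 in mutant 3 and by less than 1 in controls 1 and 3 (0.849 and 0.974). Whether *Otol1* was expressed in controls 1 and 3 could therefore not be judged at this depth.

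*Otog* was at 0.0372, 0.102 and 0.0348 FPKM in controls 1, 2 and 3 and at 0.286, 0.161 and 0.0551 FPKM in mutants 1, 2 and 3. For *Otogl* the levels were 0.0432, 0.194 and 0.0686 FPKM in the controls, and 0.233, 0.198 and 0.151 FPKM in the mutants. For both otogelins, controls 1 and 3 were lowest, mutant 1 was highest and control 2 lay above mutant 3. The differences were 0.14 (SE 0.09) for *Otog* and 0.12 (SE 0.07) for *Otogl*, on the log2(FPKM + 1) scale. An estimated 14.3 to 141 fragments stood behind the *Otog* values and 15.5 to 100 behind those of *Otogl*, so that neither gene was without fragments in any sample.

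**Figure D1:**
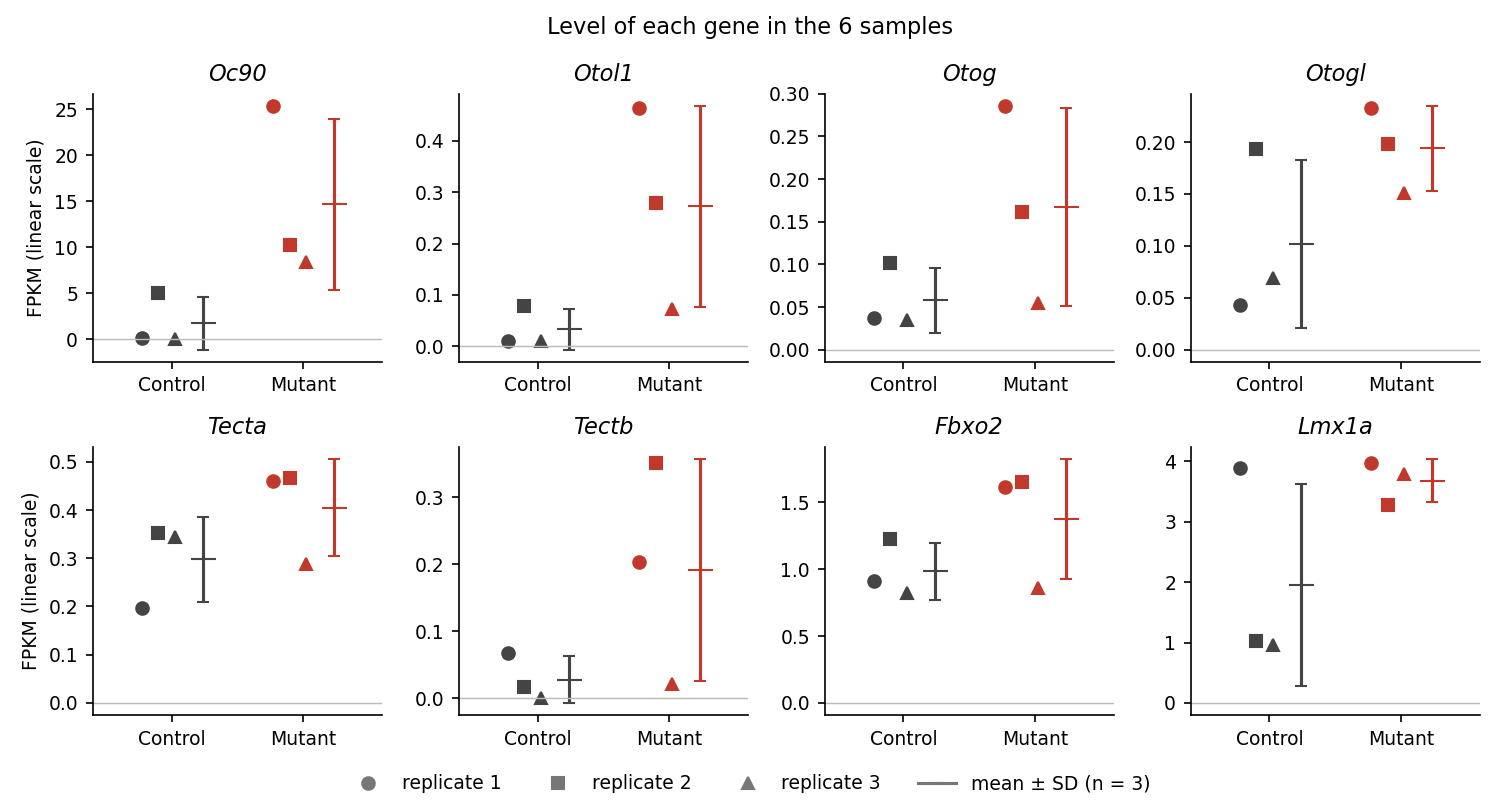
FPKM (vertical axis, linear, a separate scale in each panel) of the 8 genes in 3 controls (grey) and 3 mutants (red), with symbols for the replicate number and mean ± SD beside each group. Controls 1 and 3 lie lowest for *Oc90*, *Otol1*, *Otog* and *Otogl*, and the groups overlap for every gene except *Oc90*.

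*Tecta* was at 0.196, 0.352 and 0.345 FPKM in controls 1, 2 and 3 and at 0.461, 0.466 and 0.288 FPKM in mutants 1, 2 and 3. It varied less than *Oc90*, was highest in mutants 1 and 2, and was lower in mutant 3 than in 2 of the controls. For *Tectb* the levels were 0.0670, 0.0170 and 0 FPKM in the controls, and 0.203, 0.351 and 0.0208 FPKM in the mutants. It was likewise highest in mutants 2 and 1, while control 2, which had high *Oc90*, was at an estimated 2.08 fragments of *Tectb* and mutant 3 also at 2.08. The differences were 0.11 (SE 0.08) for *Tecta* and 0.20 (SE 0.12) for *Tectb* on the log2(FPKM + 1) scale. The 2 tectorins thus parted in control 2, though for *Tectb* this rests on very few fragments. In mutant 3 neither exceeded every control.

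*Fbxo2* was at 0.909, 1.22 and 0.821 FPKM in controls 1, 2 and 3 and at 1.61, 1.66 and 0.859 FPKM in mutants 1, 2 and 3. The 3 samples with the highest *Fbxo2* were mutants 2 and 1 and control 2, and mutant 3 lay within the controls. The difference was 0.25 (SE 0.19) on the log2(FPKM + 1) scale, and within replicate 3 it was 0.03. The range from lowest to highest sample was small beside that of *Oc90*, since the lowest sample still had 49.6% of the highest *Fbxo2* value but 0.249% of the highest *Oc90* value.

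*Lmx1a* was at 3.89, 1.03 and 0.954 FPKM in controls 1, 2 and 3 and at 3.97, 3.28 and 3.80 FPKM in mutants 1, 2 and 3. It differed from the other genes in that control 1 was as high as the mutants and control 2 was low, the opposite of *Oc90* in both samples. The difference was 0.80 (SE 0.44) on the log2(FPKM + 1) scale and 0.02, 1.07 and 1.30 within replicates 1, 2 and 3. *Ttr*, the transthyretin gene of choroid plexus, was at 56.1, 1.04 and 1.91 FPKM in controls 1, 2 and 3 and at 27.4, 67.6 and 22.9 FPKM in mutants 1, 2 and 3. Like *Lmx1a* it was low in controls 2 and 3 only. The summed FPKM of roof plate and cortical hem genes, where *Lmx1a* is also at work, was lowest in the same 2 controls. It was 28.8 and 31.7 there, against 39.1 to 51.0 in the other samples, and *Rspo1* and *Rspo2* are a large part of it. Both of these genes, *Wnt1* and *Wnt8b* were lowest in these 2 controls. *Wnt3a*, *Gdf7*, *Lmx1b*, *Bmp6* and *Wnt2b* were not. The summed FPKM of the choroid plexus genes was also lowest in controls 2 and 3 (59.3 and 55.4, against 77.7 to 133), but *Ttr* is itself a large part of this sum. Among the other genes of that list, *Folr1*, *Kcne2*, *Kcnj13*, *Clic6* and *Otx2* were also lowest in these 2 controls. *Aqp1*, *Prlr*, *Sostdc1*, *Slc4a5*, *Kl* and *Enpp2* were not. The part of either list in the *Lmx1a* values was not tested.

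**Figure D2:**
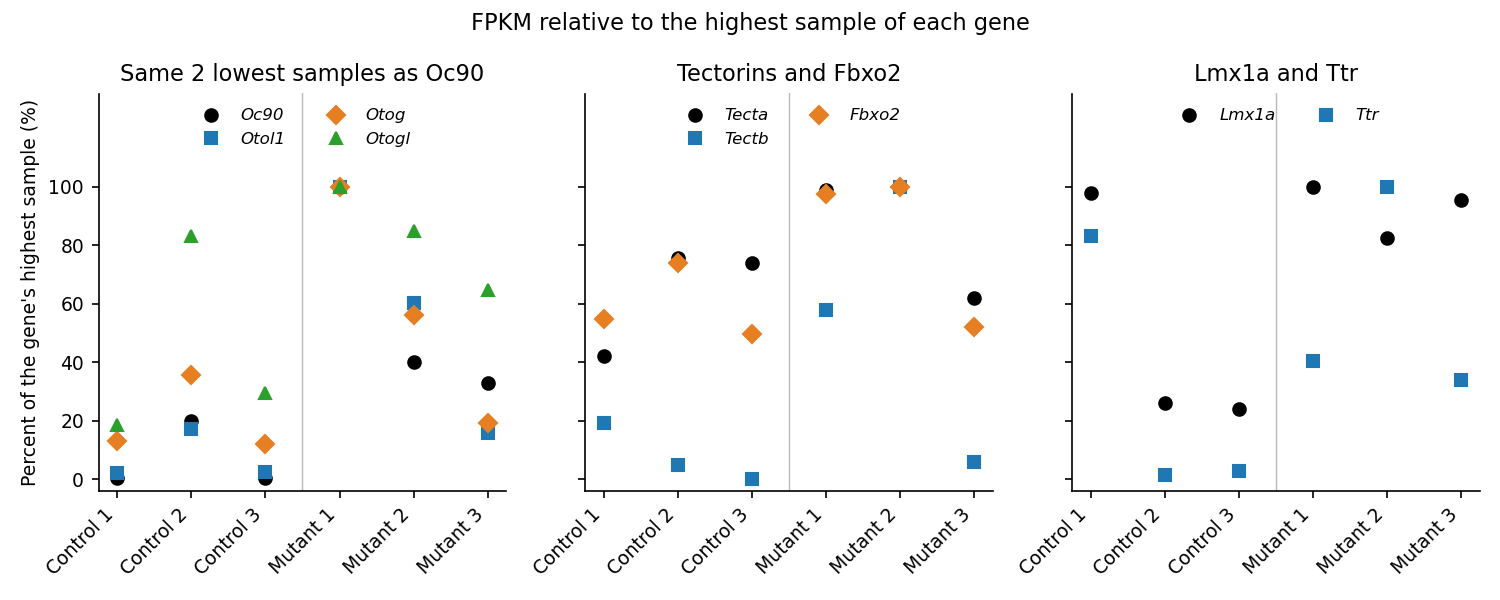
FPKM as a percentage of each gene's own highest sample (vertical axis), by sample (horizontal axis). Left, *Oc90*, *Otol1*, *Otog* and *Otogl*, lowest in controls 1 and 3. Middle, *Tecta*, *Tectb* and *Fbxo2*, highest in mutant 2. Right, *Lmx1a* and *Ttr*, low in controls 2 and 3 only.

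Sample by sample, the answer to the question differed. In mutants 1 and 2, the 2 samples with the highest *Oc90*, all of *Otol1*, *Otog*, *Otogl*, *Tecta*, *Tectb* and *Fbxo2* were above every control, *Otogl* in mutant 2 by little (0.198 against 0.194 FPKM). These are also the 2 samples with Y-linked expression, whose part in the values was not tested. In mutant 3, *Oc90* was at 33.0% of its highest value, while *Otol1* was at 15.7%, *Otog* at 19.3%, *Tectb* at 5.94%, *Otogl* at 64.9%, *Tecta* at 61.9%, *Fbxo2* at 51.9% and *Lmx1a* at 95.7%, and all 7 lay within the range of the controls. In control 2, *Oc90* was at 19.8% of its highest value, *Otol1* at 17.1%, *Otog* at 35.6% and *Otogl* at 83.2%, whereas *Tectb* was at 4.86%, and *Tecta*, *Fbxo2* and *Lmx1a* were at 75.7%, 74.0% and 26.1%. In controls 1 and 3, *Oc90* and *Otol1* were both under 3% of their highest values, but *Otog* was at 13.0% and 12.2%, *Otogl* at 18.6% and 29.5%, *Tecta* at 42.1% and 74.1%, *Tectb* at 19.1% and 0%, *Fbxo2* at 54.9% and 49.6% and *Lmx1a* at 97.9% and 24.0%. Relative to *Oc90* in the same sample, the *Otol1* level was 1.57% in control 2 and 1.83%, 2.74% and 0.868% in mutants 1, 2 and 3, and the *Otog* level was 2.02%, 1.13%, 1.58% and 0.657%. Among these 4 samples the ratio was lowest in mutant 3 for *Otol1*, *Otog* and *Tectb*. It was lowest in mutant 1 for *Otogl* (0.917%, against 1.80% in mutant 3), *Tecta* (1.81% against 3.44%), *Fbxo2* (6.36% against 10.3%) and *Lmx1a* (15.6% against 45.3%). Tissue was sequenced in bulk, and a change in the number of cells of a type cannot be told apart from a change in RNA per cell.

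Of the 7 genes other than *Oc90*, 3 had controls 1 and 3 as their lowest samples, as did 601 of all 17826 genes tested (3.37%). This is a description, since the genes were chosen with these values known. Pearson r with *Oc90* over the 6 samples, on log2(FPKM + 1), was 0.951 for *Otogl*, 0.850 for *Otol1*, 0.830 for *Otog*, 0.757 for *Fbxo2*, 0.711 for *Tecta*, 0.569 for *Tectb* and 0.418 for *Lmx1a*. Spearman rho was 0.886, 0.886, 0.943, 0.771, 0.657, 0.771 and 0.600 in the same order. The 2 samples farthest from the median of *Oc90* were controls 1 and 3. Without them r was 0.654 for *Otogl*, 0.921 for *Otol1*, 0.870 for *Otog* and 0.543 for *Fbxo2*. It was 0.628 for *Tecta*, 0.535 for *Tectb* and 0.737 for *Lmx1a*, and all these values rest on 4 samples only. These coefficients describe likeness only, because the samples fell into 2 with *Oc90* near 0 and 4 with more, and no relation was tested.

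By level per length, *Oc90* stood first in mutants (14.7 FPKM), followed by *Lmx1a* (3.68 ± 0.36), *Fbxo2* (1.38 ± 0.448), *Tecta* (0.405 ± 0.101), *Otol1* (0.272 ± 0.196), *Otogl* (0.194 ± 0.041), *Tectb* (0.192 ± 0.165) and *Otog* (0.167 ± 0.116; SD, n = 3). From *Tecta* on, neighbours in this order did not differ beyond their spread. In controls, *Lmx1a* (1.96 ± 1.67) and *Oc90* (1.73 ± 2.87) did not differ beyond their spread, and *Otol1* (0.0333 ± 0.0398) and *Tectb* (0.0280 ± 0.0348) were lowest. Only *Oc90* exceeded an FPKM of 5 in any sample, and 5 of the 8 genes were under an FPKM of 1 in every sample.

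Other genes of the inner ear were then examined from 4 lists of 65 genes that are not among the 8, of which 53 passed a mean FPKM of 0.1. With limma, no gene of the whole table had an adjusted p under 0.05 (smallest 0.203), and 443 genes (2.49%) had an unadjusted p under 0.05. Of the 53 inner-ear genes, 0 were higher and 1 was lower in mutants at an unadjusted p under 0.05, a share near that background. The lower gene was *Foxi3*, a forkhead factor of the preplacodal ectoderm, at 1.05, 1.09 and 0.976 FPKM among controls, against 0.850, 0.575 and 0.740 in mutants (log2 difference -0.25, SE 0.09). The median log2 difference over the 53 genes was 0.04, with 34 above 0, and the median over all genes was -0.000595, with 8853 of 17826 above 0. With the replicate number as a block, 6 of the 53 had an unadjusted p under 0.05, against 5.81% of all genes, and none an adjusted one (0.846 for all 6). The 2 higher genes were *Pax2* (log2 difference 0.65) and *Barhl1* (0.77), and the 4 lower ones *Otor*, *Gjb2*, *Gjb6* and *Foxi3*. None of the 53 had controls 1 and 3 as its lowest samples. The share over all genes tested was only 3.37%, so nothing is read from this.

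Of the 12 extracellular matrix and otoconia genes, 7 were tested, and none of these had controls 1 and 3 as its lowest samples. Nothing is read from this either, beside the 3.37% of all genes. Pearson r with *Oc90* was 0.668 for *Zpld1*, 0.590 for *Otos*, 0.563 for *Otoa* and 0.556 for *Slc26a4*, all 4 highest in mutant 1 and named after their values were seen. These are the 4 highest r values of the list. For the other genes r lay between -0.388 (*Otor*) and 0.484 (*Otop1*), and it was also below 0 for *Ceacam16*, *Atp2b2* and *Noxo1*. The highest levels of the list were those of *Sparcl1* and *Otor*. *Sparcl1*, an extracellular matrix protein also made in brain and vessels, was at 19.3, 31.8 and 28.3 FPKM in controls and at 23.6, 30.8 and 27.6 in mutants. *Otor* of cochlear mesenchyme was at 9.43, 14.0 and 11.2 in controls and at 7.60, 9.99 and 9.17 in mutants. *Otop1* and *Nox3*, both needed to form otoconia, stayed at no more than 0.0548 and 0.034 FPKM in any sample. In all, 5 genes of this list were under a mean of 0.1 (the 2 named, *Slc26a4*, *Ceacam16* and *Otos*), and 0 of the 7 tested had an unadjusted p under 0.05. The ion transport and endolymph genes were led by *Slc12a2*, a sodium, potassium and chloride cotransporter (17.9 to 18.0 FPKM in controls, 16.0 to 18.5 in mutants), and *Gjb2*, connexin 26 (12.8 to 14.5 in controls, 9.75 to 13.8 in mutants), and 0 of 8 had an unadjusted p under 0.05. Of the hair cell genes, 0 of 11 did, with *Myo7a* (3.63 to 7.79 in controls, 3.55 to 7.16 in mutants) and *Espn* (1.83 to 2.14 in controls, 1.63 to 2.03 in mutants) the highest. *Tmc2* and *Strc*, expressed in maturing hair cells, stayed at or under 0.0145 FPKM.

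Of the 27 otic vesicle regulators, all tested, 0 were higher and 1 lower at an unadjusted p under 0.05 (median log2 difference 0.06). The most abundant was *Sox2*, which brain and other placodes also express (61.0, 27.4 and 39.9 FPKM in controls, 50.0, 44.9 and 38.7 in mutants). In this list 13 of 27 genes had their highest value in mutant 1, and in the 4 inner-ear lists together 20 of 53 did (37.7%), against 15.0% of all genes. Genes named from here to the end of the paragraph were chosen after their values were seen. *Pax2*, an early otic gene, was at 0.495, 0.219 and 0.176 FPKM in controls 1, 2 and 3 and at 2.50, 0.517 and 0.565 FPKM in mutants 1, 2 and 3. *Pax8* had 1.31 FPKM in mutant 1 and at most 0.064 in any other sample. *Hmx2*, *Hmx3* and *Gata3* had 1.40, 1.25 and 6.69 FPKM in mutant 1 and at most 0.841, 0.761 and 3.40 in the other samples. *Atoh1*, the proneural factor of hair cells and of the hindbrain rhombic lip, was under a mean of 0.1 and not tested, and had 0.508 FPKM in mutant 1 and at most 0.0229 in the others. In mutant 1, then, these early otic genes were at their highest together with *Oc90*. In the other 3 samples with raised *Oc90* they lay within or below the range of controls 1 and 3, except for *Hmx2* in control 2 and mutant 2 (0.773 and 0.841 FPKM) and *Pax2* in mutants 2 and 3.

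**Figure D3:**
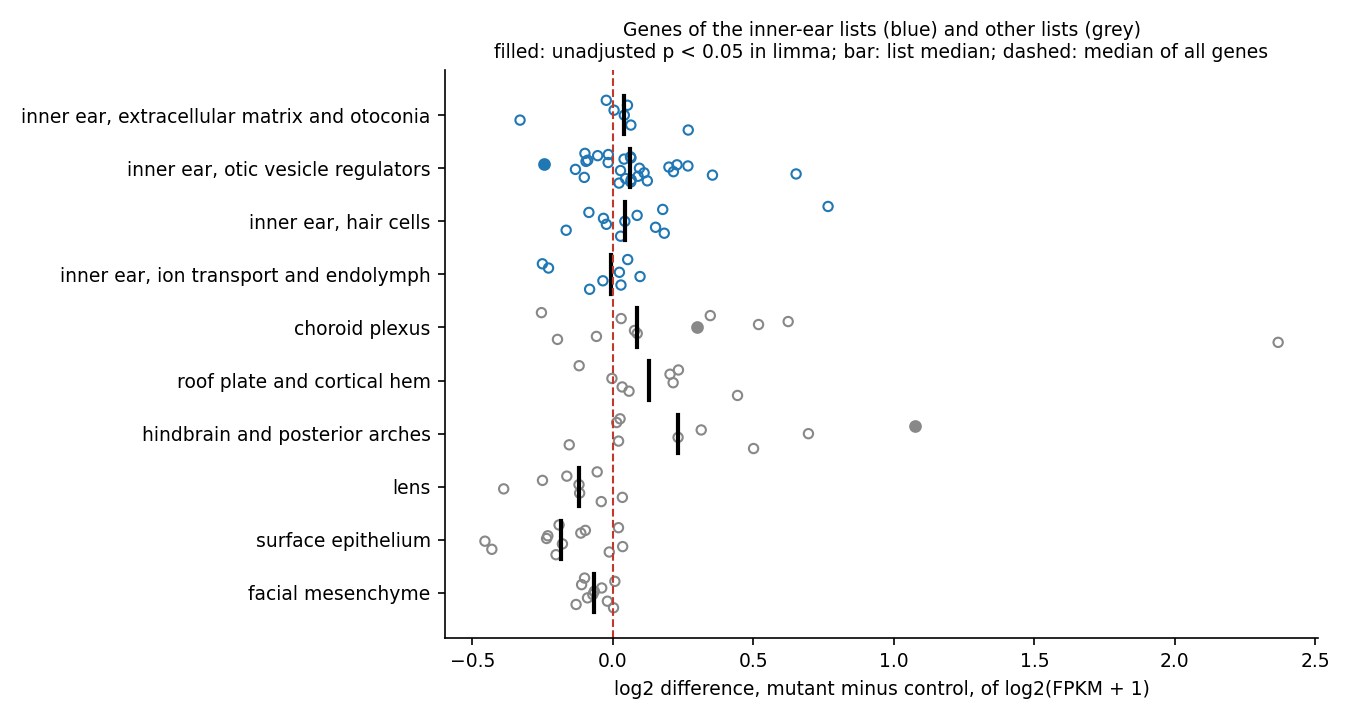
Log2 difference between mutants and controls (horizontal axis, log2(FPKM + 1) scale) for each tested gene of 4 inner-ear lists (blue) and 6 other lists (grey), with a bar at each list median and filled points for an unadjusted p under 0.05. Of the 53 blue points, 1 is filled, and the medians of the inner-ear lists lie close to the dashed median of all genes.

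Genes of tissues next to the ear were high in some of the same samples. Of the 9 tested hindbrain and posterior arch genes, 7 had their highest value in mutant 1, and the summed FPKM of the list was 30.0 there, against 10.7 to 14.6 in the other samples. *Hoxa2*, which patterns rhombomeres and the second arch, was at 0.315, 2.44 and 2.13 FPKM in controls 1, 2 and 3 and at 6.56, 3.69 and 2.73 FPKM in mutants 1, 2 and 3. Its groups did not overlap, and over all genes tested 3.03% had all mutants above all controls. It was the 1 gene of 9 with an unadjusted p under 0.05 in limma (log2 difference 1.08, SE 0.41), against 2.49% of all genes. With the replicate block it lost this call. Its 2 lowest samples were controls 1 and 3, where *Oc90* was near 0, and its highest was mutant 1, where *Oc90* was highest. The same 2 lowest samples were found in 3.37% of all genes tested. Whether the hindbrain and arch genes had a part in the *Oc90* values was not tested.

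The choroid plexus list had 1 of 11 genes higher at an unadjusted p under 0.05, *Kcnj13*, a potassium channel (0.207, 0.110 and 0.0408 FPKM in controls, 0.241, 0.540 and 0.359 in mutants, log2 difference 0.30, SE 0.10). Of all genes tested, 2.49% had such a p in either direction. The most abundant genes of the list were *Ttr* and *Enpp2* (12.6 to 17.1 in controls, 15.0 to 15.5 in mutants). In the roof plate and cortical hem list 0 of 8 passed, with *Rspo2* (8.93 to 14.7 in controls, 11.3 to 13.6 in mutants) and *Rspo1* (8.07 to 16.8 and 10.4 to 12.1) highest. Lens (0 of 8, summed FPKM 105, 217 and 184 in controls and 85.7, 266 and 118 in mutants) was led by *Cryaa* and *Cryba1*, and surface epithelium (0 of 12, with 172, 286 and 247 in controls against 178, 228 and 181 in mutants) by *Krt5* and *Krt14*. With the replicate block, 3 of the 12 surface epithelium genes were lower in mutants at an unadjusted p under 0.05 (*Grhl3*, *Krt5* and *Krt14*). With that block 5.81% of all genes had such a p, in either direction. The lens and surface epithelium lists were both lowest in the first replicates of the 2 groups and thus had another order than *Oc90*. Facial mesenchyme (0 of 10), led by *Prrx1* and *Twist1*, had sums of 433, 488 and 458 among controls against 479, 390 and 456 in mutants.

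**Figure D4:**
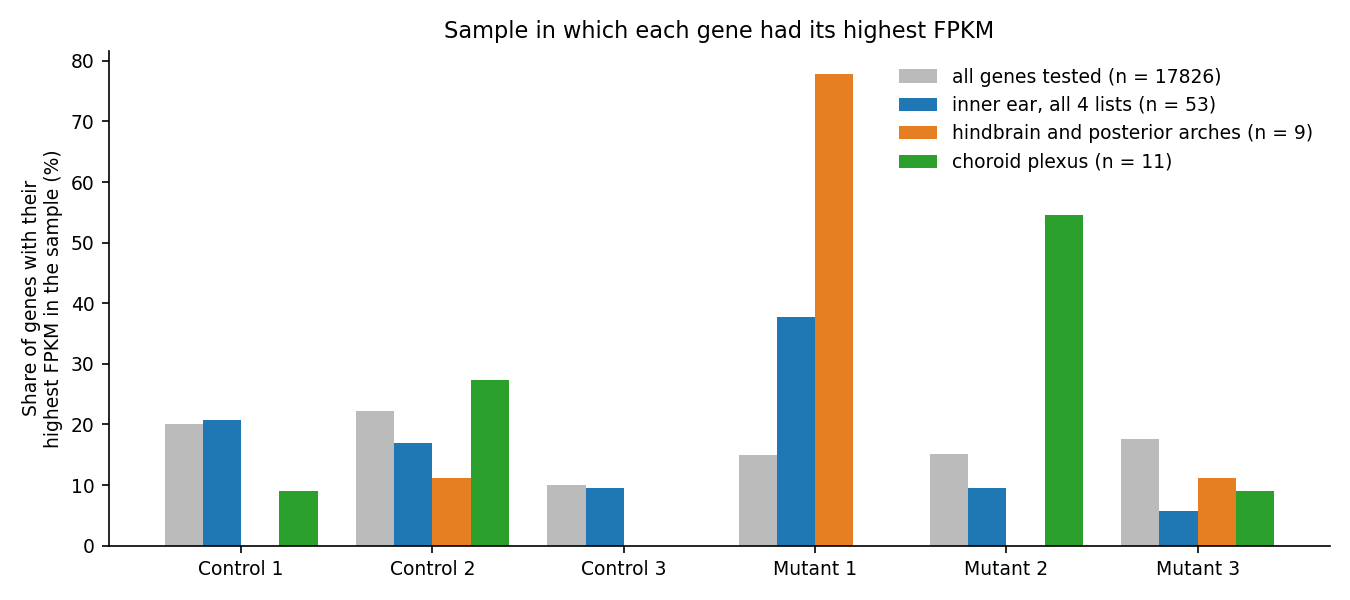
Share of genes (vertical axis, percent) that had their highest FPKM in each of the 6 samples, for all genes tested, the 4 inner-ear lists together, the hindbrain and posterior arch list and the choroid plexus list. In mutant 1 the bar of the inner-ear genes stands at 37.7%, against 15.0% for all genes, and that of the hindbrain and arch genes at 77.8%. The facial mesenchyme list, not drawn here, had 40% in mutant 1.

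Likeness to *Oc90* was also ranked among abundant genes. This left out all of the 8 genes but *Fbxo2* and *Lmx1a*, and *Otogl* (r = 0.951), which was not ranked, lay above the last 3 of the 10 named here. Among 13714 genes with a mean FPKM of at least 1, ranked by Pearson r over the 6 samples, the first 10 were *Inpp4a* (r = 0.987), *Fam13c* (0.982), *Cacnb2* (0.972), *Cyb5d1* (0.968), *Mapk7* (0.959), *Nkain2* (0.954), *Myo16* (0.951), *Slc39a6* (0.949), *Dand5* (0.947) and *Bmf* (0.944). Of the 65 inner-ear list genes, 31 were abundant enough to be ranked, and none of these was among the 10. With only 10 places among 13714 genes, nothing is read from that absence. All 10 had controls 1 and 3 as their lowest samples, which comes with the ranking by r and is not a separate result. None had the range of *Oc90*, with a median 1.24-fold between lowest and highest sample. *Inpp4a*, a phosphoinositide phosphatase, was at 6.51, 7.66 and 6.65 FPKM in controls and at 8.69, 8.20 and 7.68 in mutants. *Nkain2*, with the widest range of the 10 (4.35-fold), was at 0.452, 0.917 and 0.342 FPKM in controls and at 1.47, 1.48 and 1.49 in mutants. With a pseudocount of 0.1 in place of 1, 7 of the 10 remained.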

How the data were processed

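Craniofacial tissue of 3 control and 3 *Rbfox2* mutant embryos was compared, with groups and replicate numbers taken from the labels, which call them independent biological replicates. The authors prepared stranded poly(A)+ libraries, aligned paired-end reads to GRCm38 with STAR (version not given in the sources used here) and deposited FPKM for each gene and sample. Cuffdiff is named for expression, FastQC 0.11.4 for read quality, and the annotation release is not given in the sources used here. The deposited tables of single samples and of all samples held equal values (0 differences).

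The 8 genes, the gene lists and the rules were chosen with earlier results of these data known. Positions came from GENCODE M21, in which 95.0% of gene identifiers were found. Genes with a mean FPKM of at least 0.1 over the 6 samples (17826) were tested on log2(FPKM + 1) with limma 3.58.1 in R 4.3.3 (intensity trend, two-sided, Benjamini-Hochberg adjustment), a step tested on simulated data. The FPKM filter of the methods, which asks for a value over 5 in every sample of a group, was an alternative, since a gene can pass it through 1 group. Depth was estimated as the smallest step of FPKM times length in genes with 1 transcript of at least 1 kb, and fragments of a gene from the length of its longest transcript. Both are rough, and no count test was run. A gene with 2 entries of 1 name was taken by the identifier that carries the name in GENCODE. Named genes were the 8, the 2 most abundant genes of each list, list genes with an unadjusted p under 0.05, genes near 0, the 10 most like *Oc90*, *Rbfox2* and *Ttr*. Others were named after their values were seen. The values of some genes that this rule names are not reported here.

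After subtraction of the group means, same-numbered samples correlated at 0.548, 0.271 and 0.363 (replicates 1, 2 and 3, 13715 genes, which are not independent), each over 0.1, so the numbers were taken to pair the samples. The pairing comes from these values, not from the labels. Control 3 and mutant 2 also correlated, at 0.298, above the pair numbered 2, and the other differently numbered pairs lay between -0.515 and 0.0984. The pairing within replicates 2 and 3 is therefore uncertain. Results with the replicate block and differences within replicate numbers share this uncertainty. Alternatives were a pseudocount of 0.1, median-ratio scaling, quantile normalization, other filters, no trend, the replicate block, replicates 2 and 3 only, and each sample left out. A term for the first replicates was added after seeing the data. Analyses used Python 3.11.15 with pandas 2.3.3, numpy 2.4.6, scipy 1.17.1 and matplotlib 3.10.9.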

Additional observations from a re-analysis of the deposited data

How the results depend on the processing

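The log2 difference of *Oc90* was 2.88 and became 4.61 with a pseudocount of 0.1. It was 2.43 to 3.71 with 1 sample left out, 2.02 in replicates 2 and 3 only, and 2.88 to 2.92 under the other scalings. With a pseudocount of 0.1 the differences of *Otol1*, *Otog*, *Otogl*, *Tecta* and *Tectb* rose to 1.36, 0.69, 0.60, 0.35 and 1.03. All 8 genes kept their direction under every alternative run. Their size moved by over 1.5 times in several. *Otol1* fell from 0.29 to 0.18 and *Otog* from 0.14 to 0.07 without mutant 1, *Tecta* from 0.11 to 0.06 and *Lmx1a* rose from 0.80 to 1.23 without control 1, *Tectb* fell from 0.20 to 0.11 and *Fbxo2* from 0.25 to 0.16 without mutant 2, and *Otogl* rose from 0.12 to 0.18 without control 2. Without mutant 3, *Otog*, *Tecta*, *Tectb* and *Fbxo2* were at 0.21, 0.18, 0.31 and 0.41. In replicates 2 and 3 only, *Otol1*, *Otog*, *Otogl*, *Tecta* and *Fbxo2* were at 0.17, 0.05, 0.06, 0.03 and 0.14. The count of genes with an adjusted p under 0.05 was 0, and with 1 sample left out it ranged from 0 to 6, with 2 without control 1 (*Eif3j2* and *Gm9385*) and 6 without mutant 3 (*Gm7879*, *Kdm5d*, *Uty*, *Ddx3y*, *Eif2s3y* and *Xist*), none an inner-ear gene of the lists. The count with an unadjusted p under 0.05 was 443. It was 167 with the FPKM filter of the methods and 286 with a mean FPKM of at least 1, which test fewer genes. It was 1035 with the replicate block, 1628 in replicates 2 and 3 only, 1053 with a term for the first replicates, and 252 (without control 2) to 1214 (without control 1) with 1 sample left out, 721 without mutant 1. The cause was not tested. Among inner-ear genes of the lists the count was 1, and it was 2 with a pseudocount of 0.1, 0 with either stricter filter, 6 with the replicate block, 10 in replicates 2 and 3 only and 4 with the term for the first replicates. With 1 sample left out it was 0 (without control 2, control 3 or mutant 3) to 6 (without control 1), with 3 without mutant 1 and 2 without mutant 2. Besides the calls given here and beside the results, the block changed no other count of calls by over 1.5 times. Low FPKM limit *Otol1* and *Tectb* most, since in several samples they rest on a few estimated fragments, and intervals for counting error were not computed.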
